A study of Mus musculus with 10 samples.

Results

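The genes described here are 39 markers of Kupffer cells and other leukocytes, out of 55401 genes counted in mouse liver. They were taken by symbol from a list chosen with earlier results of these data known, and fall into 7 classes by cell type or role. These are 3 pan-leukocyte genes, 7 Kupffer cell genes, 6 general macrophage genes, and 4 genes of Fc receptor and ITAM signalling or the phagocyte oxidase. The others are 5 genes of MHC class II antigen presentation, 5 monocyte or dendritic cell genes, and 9 lymphocyte genes. All 39 symbols matched 1 identifier in the count files. The 10 RNA-seq libraries came from whole liver of 5 WT mice and 5 mice with a liver-specific knockout of thyroid hormone receptor beta (THRB-KO), on a strain named C57Bl6/J in the sample titles and C56Bl6/J in the strain label. The knockout mice and their WT littermates received standard chow, and no group received a treatment. The study crossed Thrb-loxP mice to Afp-Cre mice, in which the Afp promoter drives recombination in cells of the hepatocyte lineage, so that the Thrb gene of leukocytes was not the target. Age, sex and time of collection are not given in the sources used here. The labels number the samples 1 to 5 in each genotype without saying that each came from its own animal. They are called mice below, and p-values measure the spread between these samples.

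Kupffer cells are the resident macrophages of the liver. They line the sinusoids, take up bacteria, lipoproteins and old red blood cells from the portal blood, and depend on the CSF1 receptor. In a steady-state mouse liver they are the main source of Clec4f, Timd4 and Cd5l transcripts. MHC class II molecules, which present peptides to CD4+ T cells, are made mainly by dendritic cells, B cells and macrophages, and their genes are switched on together by the coactivator CIITA acting on a shared promoter module. C57BL/6 mice carry a defective E alpha chain gene, so that H2-Aa and H2-Ab1 encode the chains of their surface class II molecule.

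Total counts per library were between 26477195 and 28530198 in WT and between 27779196 and 28590704 in THRB-KO livers. Values are normalized CPM, that is, counts scaled to the library total and by TMM factors, and 3 counts corresponded to between 0.0993 and 0.117 CPM. Of 12234 genes that reached 1 CPM in 5 or more libraries, 499 had an adjusted p below 0.15 in edgeR's quasi-likelihood test, which is 4.08%. Of all genes tested, 2.57% passed as lower and 1.51% as higher in THRB-KO, and 1.35% passed 0.05. The targeted gene, Thrb, was at 33.4, 34.2, 32.5, 33.5 and 32.9 CPM in the WT mice and at 25.1, 24.9, 28.7, 25.9 and 28.8 CPM in the THRB-KO mice, a log2 fold change of -0.32 ± 0.067 (SE, adjusted p = 0.036). Reads were counted over all exons of the gene and all cells of the liver, so this change does not measure how much receptor was lost. The 8 hepatocyte genes checked as defining markers of the labelled tissue summed to between 83600 and 125300 CPM.

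The promoters of 31 of the 39 genes were in the RefSeq table of GRCm38.p6. Without an entry were H2-Ab1, Cd74, Csf1r, Adgre1, Tyrobp, Ccl5, Cd79b and Ms4a1. The last 100 bases before the start site of H2-Aa and H2-Eb1 are shown because these genes belong to the class II set that differed in direction from the other members. The capitals mark CTGATTGG, a sequence holding the inverted CCAAT of the class II Y box. H2-Aa lies on the minus strand (chr17:34287824-34287923) and H2-Eb1 on the plus strand (chr17:34305767-34305866), both printed 5′ to 3′ on the strand of the gene.
H2-Aa: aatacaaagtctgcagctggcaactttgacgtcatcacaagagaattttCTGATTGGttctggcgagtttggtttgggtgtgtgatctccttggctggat
H2-Eb1: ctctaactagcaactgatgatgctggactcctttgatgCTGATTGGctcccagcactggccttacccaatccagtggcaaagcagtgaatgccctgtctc
The 8 bases start 51 bases before the start site in H2-Aa and 62 bases before it in H2-Eb1. They were picked after both sequences had been seen. By that choice H2-Aa and H2-Eb1 both held this sequence. They were the 2 of the 31 genes with it in either orientation in the 250 bases before the start. It was found in 4.43% of 27025 genes with a promoter entry, a share to which the 2 chosen genes cannot be compared. The shorter ATTGG, searched on both strands and contained in CTGATTGG, was found for 12 of the 31 genes and for 37.5% of all genes. GAGGAAGT, a sequence bound by the myeloid factor PU.1, was found on either strand in 1 of the 31 genes, Ly6c2, and in 2.79% of all genes.

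The Kupffer and macrophage genes were lower on average in THRB-KO livers, the class II genes were higher, and only 1 gene of each direction passed the test. Of the 39 genes, 25 were expressed highly enough to be tested, and the other 14 did not reach 1 CPM in 5 libraries. Among the 25, the log2 fold change was negative in 21 and positive in 4, with a median of -0.43, whereas the median over all genes tested was 0.00054 and 49.9% of all genes had a negative value. The 4 positive genes were Cd74, H2-Aa, H2-Ab1 and H2-Eb1, with a median of 0.70. The other 21 had a median of -0.55, between -2.0 and -0.18. These 21 genes largely shared the order of the mice, as described below, so their signs are not separate observations. Passing were 2 of the 25, or 8%, which are Mpeg1 as lower and H2-Ab1 as higher, and 0 passed at 0.05 by edgeR's quasi-likelihood test. At an unadjusted p below 0.05, 7 members were lower and 3 higher, against 7.41% and 6.15% of all genes in these directions. These calls depended on the mice: without WT mouse 1, 10 members were called, all lower (Ptprc, Laptm5, Cd5l, Timd4, Cd163, Adgre1, Csf1r, Cd68, Mpeg1 and Cybb), and H2-Ab1 was no longer among them. In that fit 516 of 12342 genes were called, or 4.18%, with 2.83% as lower. DESeq2 called 7 members at 0.15 (Marco, Timd4, Mpeg1, Cybb, H2-Aa, H2-Ab1 and H2-Eb1), and 3 at 0.05, and it called 7.23% of all genes at 0.15. In whole liver, fewer cells of a type and less RNA per cell cannot be told apart.

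**Figure D1:**
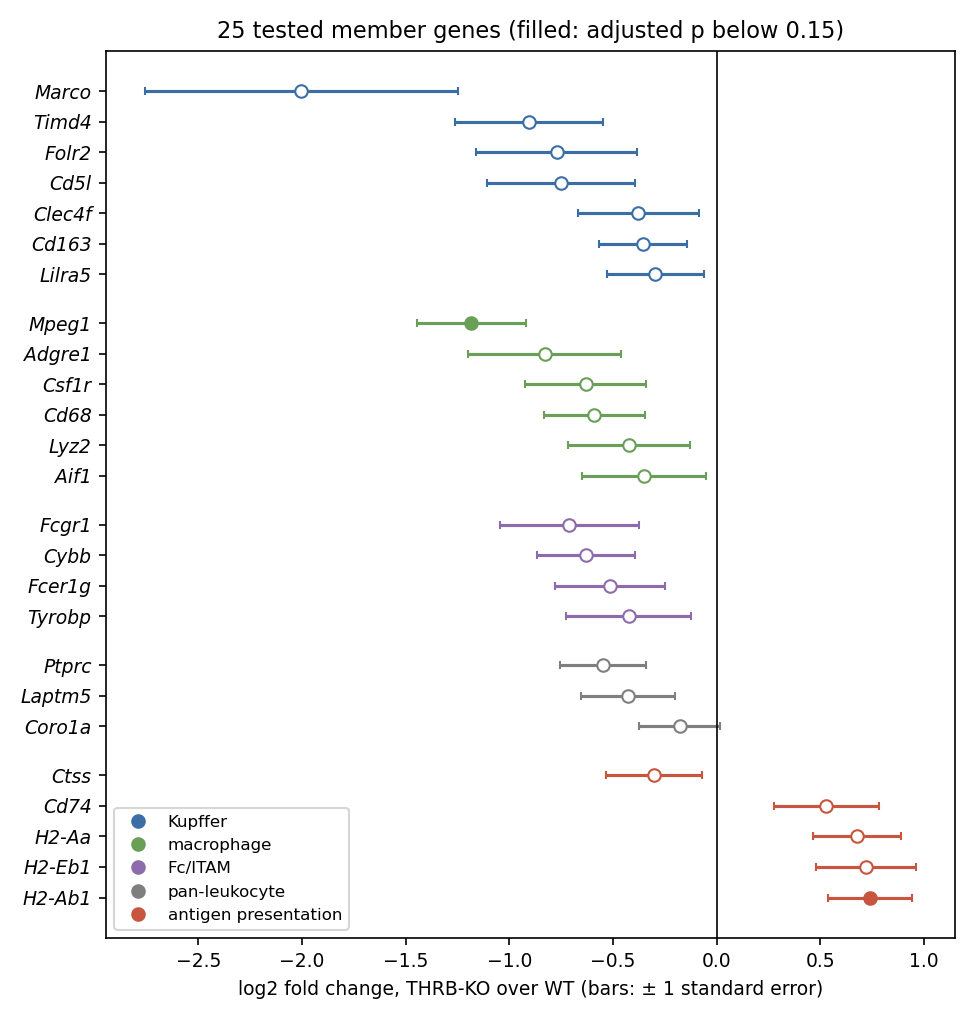
Log2 fold change of THRB-KO over WT for the 25 tested member genes on the x axis, grouped by class on the y axis, with bars of 1 standard error. The 21 genes outside Cd74, H2-Aa, H2-Ab1 and H2-Eb1 lie left of 0, and the filled points are the 2 with an adjusted p below 0.15, Mpeg1 and H2-Ab1.

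Mpeg1, which encodes the pore-forming protein perforin-2 of phagocytes, fell in THRB-KO livers. Its locus is chr19:12460779-12465283 (GRCm38, plus strand), and its exons overlap no other gene. Its CPM were 84.4, 151.6, 96.8, 92.6 and 144.7 in WT mice 1 to 5 and 53.7, 60.1, 31.2, 33.4 and 72.6 in THRB-KO mice 1 to 5. The lowest WT mouse lay above the highest THRB-KO mouse, so the genotypes did not overlap. The mean fell from 114 ± 31.6 to 50.2 ± 17.7 CPM (SD, n = 5 per genotype). It was a log2 fold change of -1.18 ± 0.26 (SE, adjusted p = 0.065 by edgeR's quasi-likelihood test). Mpeg1 was the 1 member of 25 whose genotypes did not overlap, compared with 3.64% of all genes. It stayed called under all 20 alternative settings, with adjusted p between 0.00015 and 0.14.

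The level of Mpeg1 relative to other macrophage genes varied between mice. WT mouse 1 had the lowest CPM of the 5 WT mice in each of the 21 genes, but its Mpeg1 was still above each THRB-KO mouse. The ratio of Mpeg1 to Csf1r was 4.09, 2.72, 1.43, 2.47 and 2.28 in WT mice 1 to 5 and 1.82, 1.57, 1.31, 1.19 and 1.90 in THRB-KO mice 1 to 5. The share of Mpeg1 in the summed CPM of the 13 Kupffer and macrophage genes, itself included, was 38.5, 27.6, 18.5, 24.3 and 22.8% in WT mice 1 to 5. In THRB-KO mice 1 to 5 this share was 21.6, 16.5, 16.9, 13 and 22.2%. By both measures WT mouse 3 lay within the THRB-KO range and the other WT mice above it. Both were looked at after the values had been seen and were not tested.

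Among the Kupffer cell genes, 7 of 7 were tested, 7 had a negative log2 fold change, and 0 passed (median -0.75, 2 at an unadjusted p below 0.05 by edgeR's quasi-likelihood test). Over all genes tested 2.57% were called lower and 1.51% higher, the background for each class count here and below. For an unadjusted p below 0.05 these shares were 7.41% and 6.15%. The scavenger receptor Cd163, the folate receptor Folr2 and the leukocyte receptor Lilra5 had mean WT levels of 12.9, 1.25 and 2.28 CPM. In the Folr2 locus 975 of 1546 exon bases are shared with Gm10602, and ambiguous reads were dropped, which makes its level uncertain.

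Clec4f, a C-type lectin that in mice is made by Kupffer cells, was at 29.5, 81.1, 94.8, 64.7 and 69.9 CPM in WT mice 1 to 5 and 46.7, 73.9, 34.2, 48.2 and 58.8 CPM in THRB-KO mice 1 to 5. The WT values spanned the THRB-KO values at both ends. The log2 fold change was -0.38 ± 0.29 (SE, adjusted p = 0.63). Cd5l, which encodes a secreted protein that binds fatty acid synthase and IgM, was at 32.3, 124.2, 122.6, 87.8 and 131.9 CPM in WT and 47.4, 83.9, 37.9, 62.9 and 64.5 CPM in THRB-KO mice. In 4 of the 5 WT mice it was above each THRB-KO mouse, and WT mouse 1 was the lowest of all 10. This gave a log2 fold change of -0.75 ± 0.36 (SE, adjusted p = 0.40).

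Timd4, a receptor for phosphatidylserine on apoptotic cells and a mark of long-resident Kupffer cells, was at 2.84, 7.83, 8.72, 5.67 and 14.6 CPM in WT and 3.61, 5.02, 3.12, 3.87 and 5.52 CPM in THRB-KO mice. WT mouse 1 was again the lowest of the 10, and the other 4 WT mice lay above each THRB-KO mouse. This gave a log2 fold change of -0.91 ± 0.36 (SE, adjusted p = 0.30). Marco, a scavenger receptor for bacteria, had values of 2.54, 10.5, 13.1, 8.36 and 62.3 CPM in WT and 4.66, 6.94, 2.50, 6.19 and 3.86 CPM in THRB-KO mice. WT mouse 5 stood far above the others. The log2 fold change of -2.0 ± 0.76 (SE, adjusted p = 0.28), the most negative of the members, became -0.84 without that mouse.

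**Figure D2:**
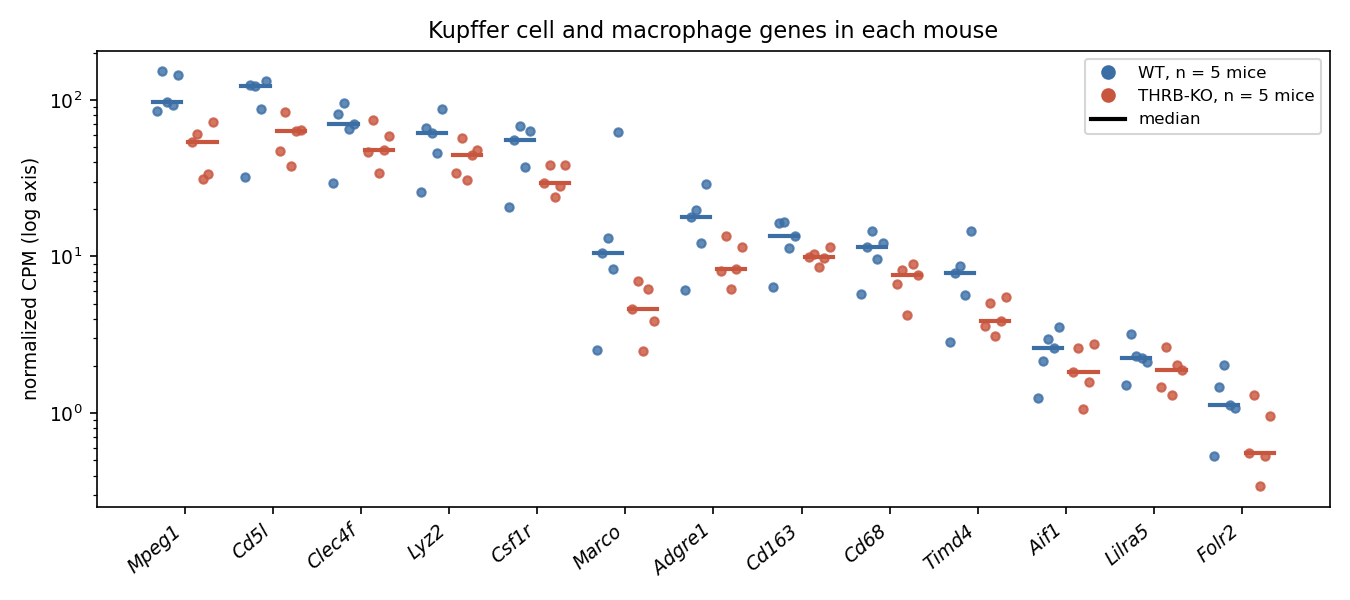
Normalized CPM (log y axis) of the 7 Kupffer cell and 6 macrophage genes in 5 WT and 5 THRB-KO mice. Points are mice and bars are medians, and the WT group holds 1 mouse near or below the lowest THRB-KO mouse in most genes, while Mpeg1 is the gene whose groups do not overlap.

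The general macrophage genes were likewise negative in 6 of 6, with 1 called (Mpeg1) and 3 at an unadjusted p below 0.05. Adgre1, which encodes the F4/80 antigen, was at 6.13, 17.9, 19.7, 12.1 and 28.9 CPM in WT and 8.09, 13.6, 6.24, 8.38 and 11.5 CPM in THRB-KO mice. The genotypes overlapped at WT mouse 1, which was the lowest of the 10, and at WT mouse 4. The log2 fold change was -0.83 ± 0.37 (SE, adjusted p = 0.36). Csf1r, the receptor for the growth factor on which macrophages depend, was at 20.6, 55.7, 67.6, 37.4 and 63.5 CPM in WT and 29.4, 38.4, 23.8, 28.1 and 38.3 CPM in THRB-KO mice. WT mice 2, 3 and 5 lay above each THRB-KO mouse, and WT mice 1 and 4 did not. The log2 fold change was -0.63 ± 0.29 (SE, adjusted p = 0.38), and 873 of its 5774 exon bases are shared with Hmgxb3. Cd68, a lysosomal glycoprotein, Aif1, an actin-binding protein, and Lyz2, which encodes lysozyme, had log2 fold changes of -0.59, -0.35 and -0.42. Lyz2 has a close paralogue, Lyz1, and reads that map to both were not counted, but their number was not measured.

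Fc receptor and ITAM genes were negative in 4 of 4, with 0 called by edgeR's quasi-likelihood test (1 at an unadjusted p below 0.05). They were Tyrobp and Fcer1g, which encode signalling adaptors with ITAM motifs, Fcgr1, the high-affinity IgG receptor, and Cybb, the catalytic subunit of the phagocyte oxidase, with log2 fold changes of -0.42, -0.52, -0.71 and -0.63. Pan-leukocyte genes were negative in 3 of 3, with 0 called (1 at an unadjusted p below 0.05). Ptprc, which encodes CD45, was at 4.20, 7.62, 8.97, 4.69 and 7.93 CPM in WT and 5.21, 5.40, 3.88, 3.94 and 4.46 CPM in THRB-KO mice. WT mice 2, 3 and 5 were above each THRB-KO mouse, and the other 2 overlapped with them. The log2 fold change was -0.55 ± 0.21 (SE, adjusted p = 0.27). Laptm5, a lysosomal protein of leukocytes, and Coro1a, an actin-binding protein, had log2 fold changes of -0.43 and -0.18.

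The order of the mice was shared by these 21 genes. WT mouse 1 was the lowest of the 5 WT mice in 21 of 21 and the lowest of all 10 in 9, and THRB-KO mouse 3 was the lowest of the 5 THRB-KO mice in 21 of 21 and the lowest of all 10 in 12. The highest value of the 10 was in WT mouse 3 for 11 genes, in WT mouse 5 for 7 and in WT mouse 2 for 3. The 13 Kupffer and macrophage genes together summed to 219, 550, 523, 382 and 636 CPM in WT mice 1 to 5 and 248, 364, 185, 258 and 328 CPM in THRB-KO mice 1 to 5. WT mice 2 to 5 lay above each THRB-KO mouse and WT mouse 1 below 4 of them. Compared per kilobase of exon, Cd5l was the highest member in WT (49.0 CPM per kb), before Lyz2 (43.6), Clec4f (27.5) and Mpeg1 (26.3), and Mpeg1 was at 11.6 CPM per kb in THRB-KO, below Clec4f at 21.2.

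**Figure D3:**
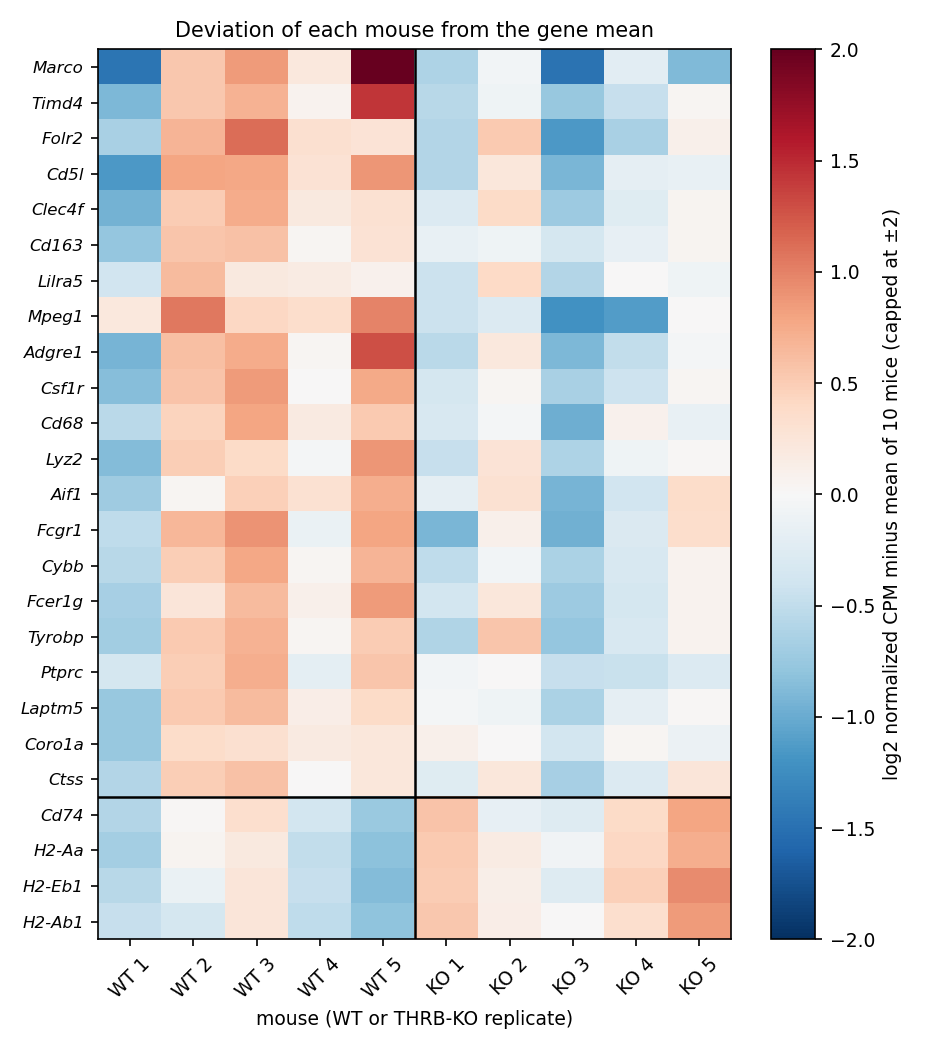
Log2 normalized CPM (0.1 added) of 25 members in each of 10 mice, minus the gene's mean over the mice (colour capped at 2 either way). Rows are genes and columns are mice, with THRB-KO written KO. WT mouse 1 and THRB-KO mouse 3 are blue through most rows above the horizontal line, and the 4 class II rows below it are red in most THRB-KO mice.

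The class II genes had log2 fold changes of the opposite sign. H2-Ab1, the beta chain of the A molecule (chr17:34257689-34269419, GRCm38, plus strand), rose in THRB-KO livers. Its CPM were 11.7, 12.6, 19.1, 11.3 and 9.17 in WT mice 1 to 5 and 23.5, 17.7, 16.1, 20.4 and 28.9 in THRB-KO mice 1 to 5. WT mouse 3 overlapped with THRB-KO mice 2 and 3, and the other WT mice were below each THRB-KO mouse. The mean rose from 12.8 ± 3.75 to 21.3 ± 5.11 CPM (SD, n = 5 per genotype), a log2 fold change of 0.74 ± 0.20 (SE, adjusted p = 0.11 by edgeR's quasi-likelihood test). The call was lost in 7 of the 10 analyses that left out 1 mouse (WT mouse 1, 2, 4 or 5, or THRB-KO mouse 1, 4 or 5), and over the 10 adjusted p ranged from 0.024 to 0.23.

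The other class II genes had similar values in the same mice without passing the test. H2-Aa, the alpha chain of the A molecule, was at 11.3, 18.9, 20.9, 12.9 and 10.3 CPM in WT and 26.2, 20.5, 17.5, 24.4 and 30.1 CPM in THRB-KO mice. WT mice 2 and 3 lay within the THRB-KO range and the other 3 below it. This gave a log2 fold change of 0.67 ± 0.21 (SE, adjusted p = 0.18). H2-Eb1, the beta chain of the E molecule, was at 7.80, 10.4, 13.5, 8.28 and 6.25 CPM in WT and 16.4, 12.4, 9.54, 15.9 and 22.0 CPM in THRB-KO mice. WT mice 2 and 3 again overlapped with THRB-KO mice, here 2 and 3. This gave a log2 fold change of 0.72 ± 0.24 (SE, adjusted p = 0.21).

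Cd74, the invariant chain that guides class II molecules to the endosome, was at 22.4, 34.2, 42.4, 25.8 and 19.9 CPM in WT and 49.6, 30.0, 28.0, 43.5 and 57.7 CPM in THRB-KO mice. THRB-KO mice 1, 4 and 5 were above each WT mouse and THRB-KO mice 2 and 3 were not. This gave a log2 fold change of 0.53 ± 0.25 (SE, adjusted p = 0.40). Ctss, the protease that trims the invariant chain and that macrophages also make, had a log2 fold change of -0.30 ± 0.23 (SE, adjusted p = 0.62), with the same low values in WT mouse 1 (14.9 CPM) and THRB-KO mouse 3 (14.2 CPM) as the macrophage genes. Without WT mouse 3, H2-Aa, H2-Ab1 and H2-Eb1 were called, and without THRB-KO mouse 2 or 3 only H2-Ab1 was. In every other fit without 1 mouse, none of the 4 was called.

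**Figure D4:**
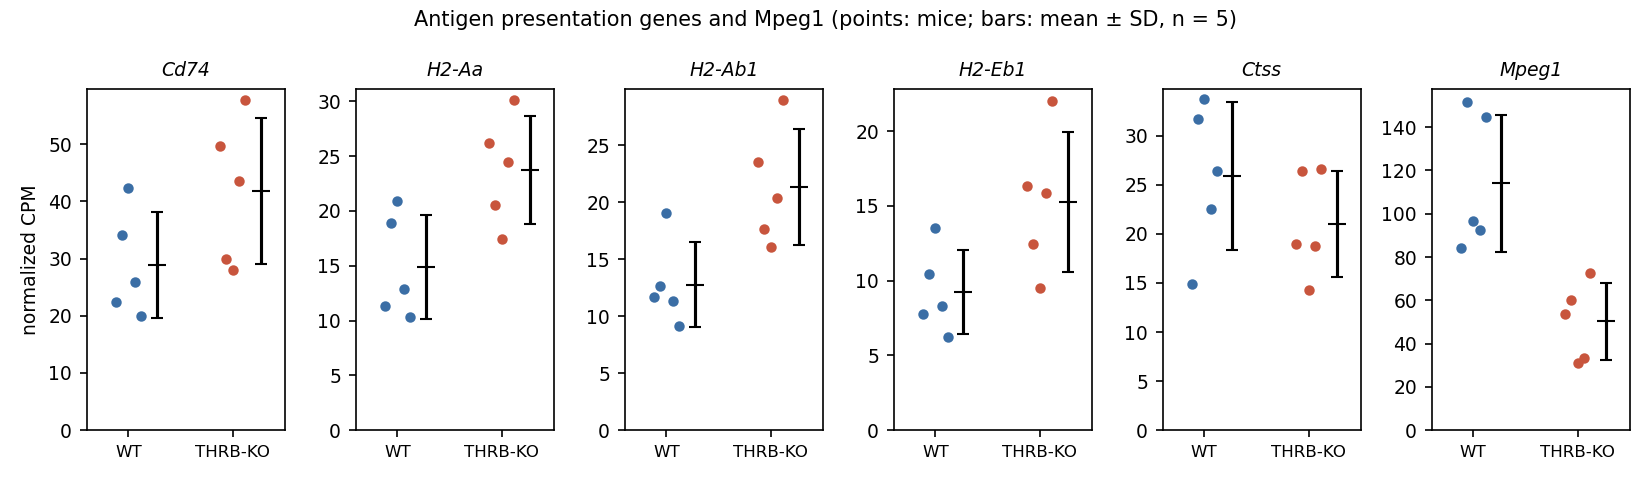
Normalized CPM of 5 antigen presentation genes and Mpeg1, with points for mice and bars for the mean ± SD (n = 5 per genotype). The THRB-KO means of Cd74, H2-Aa, H2-Ab1 and H2-Eb1 are above the WT means, and those of Ctss and Mpeg1 are below.

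Set against the Kupffer and macrophage genes, the class II genes took a larger share in THRB-KO livers. The summed CPM of Cd74, H2-Aa, H2-Ab1 and H2-Eb1 divided by that of the 13 Kupffer and macrophage genes was 0.242, 0.138, 0.183, 0.153 and 0.0718 in WT mice 1 to 5 and 0.466, 0.221, 0.384, 0.404 and 0.424 in THRB-KO mice 1 to 5. THRB-KO mouse 2 lay below WT mouse 1, and there was no other overlap. The ratio was chosen after the directions of both groups were known and is a description without a test.

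**Figure D5:**
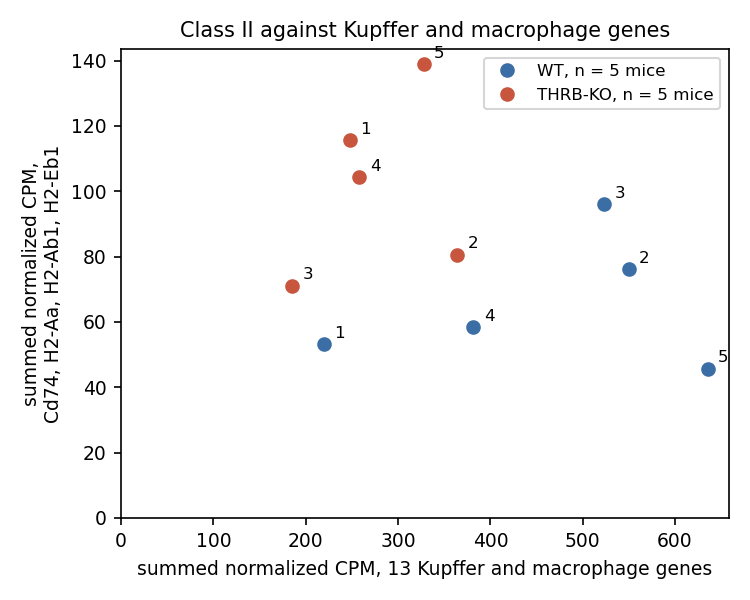
Summed normalized CPM of 4 class II genes (y axis) against that of 13 Kupffer and macrophage genes (x axis), 1 point per mouse with its number. THRB-KO mice lie up and to the left of most WT mice, and WT mouse 1 has a Kupffer and macrophage sum of 219 CPM within the THRB-KO range of 185 to 364.

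All 14 members below the filter of 1 CPM in 5 libraries were monocyte, dendritic cell or lymphocyte genes, and 1 of them, Ncr1, was at 0 in some libraries. The 5 monocyte and dendritic cell genes, Itgam, Itgax, Ccr2, Cx3cr1 and Ly6c2, summed to between 1.84 and 5.14 CPM in WT and between 2.48 and 3.96 CPM in THRB-KO mice. For Itgam 3450 of 5024 exon bases are shared with Gm49368, and ambiguous reads were dropped, which makes its level and its place below the filter uncertain. Ly6c2 has the close paralogue Ly6c1. The 9 lymphocyte genes summed to between 1.70 and 4.32 CPM in WT and between 3.25 and 4.39 CPM in THRB-KO mice. The sums of the genotypes overlapped in both classes. In the fit without a filter, which called 2.3% of 27817 genes, all 14 were tested and 0 were called by edgeR's quasi-likelihood test (lowest adjusted p = 0.46). There 1 of the 14, Itgam, had an unadjusted p below 0.05, with a log2 fold change of -0.84 ± 0.38 (SE). The 9 lymphocyte genes had log2 fold changes from -0.096 to 1.09, positive in 7, with standard errors from 0.30 to 0.80. Under filterByExpr 8 of the 14 were tested and 0 called (0 at an unadjusted p below 0.05).

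The lymphocyte genes had low counts in each mouse. Cd3e, part of the T cell receptor complex, had 3, 1, 3, 4 and 3 counts in WT mice 1 to 5 and 3, 6, 5, 8 and 5 counts in THRB-KO mice 1 to 5. Cd79a, of the B cell receptor, had 10, 24, 16, 16 and 9 counts in WT and 24, 19, 23, 16 and 20 counts in THRB-KO mice. Nkg7, of cytotoxic granules, had 7, 12, 23, 10 and 18 counts in WT and 19, 15, 9, 10 and 16 counts in THRB-KO mice. The genotypes overlapped in all 3 genes. Their log2 fold changes in the fit without a filter were 0.83 ± 0.52, 0.36 ± 0.30 and -0.096 ± 0.34 (SE).

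Lists of related genes gave the same directions in part. They were read in the same 10 mice and chosen with earlier results known, so their signs are not a separate repeat. Of 21 other Kupffer cell genes, 20 were tested, 18 had a negative log2 fold change and 1 was called, with a median of -0.47. The called gene was Il18bp, which encodes the binding protein of interleukin 18, at 11.6, 19.4, 12.8, 12.1 and 22.5 CPM in WT and 9.59, 11.4, 6.04, 7.91 and 9.65 CPM in THRB-KO mice. The genotypes did not overlap. It fell by 0.82 on the log2 scale (SE 0.22, adjusted p = 0.10), and the call was lost in 5 of the 10 analyses without 1 mouse. Of 16 other pan-leukocyte genes 13 were tested, 11 were negative and 0 were called by edgeR's quasi-likelihood test, 2 having an unadjusted p below 0.05, with a median of -0.50.

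For class II antigen presentation, 7 of 13 further genes were tested, with 4 positive and 0 called by edgeR's quasi-likelihood test (0 also at an unadjusted p below 0.05), and a median of 0.035. Of 23 other lymphocyte genes 5 were tested and 0 called (1 at an unadjusted p below 0.05), and of 10 dendritic cell genes 2 were tested and 0 called (0 at an unadjusted p below 0.05). Of 16 myeloid cytokine genes 8 were tested and 0 called (0 at an unadjusted p below 0.05). The neutrophil list had 3 of 12 tested, all negative, of which S100a8 and Lcn2 fell. Lcn2 is also an acute-phase gene of hepatocytes, and without it 2 neutrophil genes were tested and 1 called. The other 9 did not reach the filter. These 11 genes together summed to 4.38 to 27.2 CPM in WT and 2.35 to 6.39 CPM in THRB-KO mice. The ratio of the mean sums, THRB-KO over WT, was 0.26, and it was not tested. S100a8, a calcium-binding protein of neutrophils, was at 1.67, 6.01, 5.15, 0.664 and 1.085 CPM in WT and 1.077, 0.562, 0.412, 0.0993 and 0.141 CPM in THRB-KO mice. WT mouse 4 lay below THRB-KO mouse 1, the other WT mice lay above each THRB-KO mouse, and the log2 fold change was -2.67 ± 0.75 (SE, adjusted p = 0.13), a call lost in 7 of the 10 analyses without 1 mouse.

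Genes of other liver cells give the setting of these values. The acute-phase genes, made by hepatocytes in response to cytokines, were negative in 16 of 16, with 11 called as lower and a median of -1.09. Saa1 was at 1010, 7135, 265, 822 and 3669 CPM in WT and 66.1, 158, 25.8, 33.0 and 112 CPM in THRB-KO mice, with no overlap. Saa2, Lcn2 and Orm2, named with Saa1 as the 4 called genes of largest log2 fold change in this list, were at -6.06, -4.18 and -4.09 on the log2 scale. The 4 globin genes, which report red blood cells in the tissue, had a median of -0.69, with 0 called by edgeR's quasi-likelihood test and 2 at an unadjusted p below 0.05. Their summed CPM were 57.0 to 185 in WT and 46.7 to 96.6 in THRB-KO mice. The globins come from a list of 7 red blood cell and platelet genes, of which 5 were tested and 0 called. The 1 tested gene of that list that is not a globin was not lower, with a log2 fold change of 0.037. Its WT mean of 118 CPM was above that of each globin gene. In addition, 372 of its 2403 exon bases are shared with other genes. Its value was therefore not read as a measure of blood. The part of acute-phase change and of blood in the result was not tested.

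Endothelial genes were higher in 6 of 8 with 0 called (3 higher and 1 lower at an unadjusted p below 0.05), with a median of 0.21. Stellate cell genes were higher in 8 of 8 with 2 called, and a median of 0.31. These were Des, which encodes desmin, at 0.67 on the log2 scale (adjusted p = 0.057, but 0.16 with the replicate block), and the matrix gene Ecm1, with 0.53 (adjusted p = 0.12), whose call was lost in 6 of the 10 analyses without 1 mouse. Of 5 cholangiocyte genes 3 were tested, all negative, with 0 called (2 at an unadjusted p below 0.05) and a median of -0.42. Hepatocyte genes had a median of 0.042, with 0 called (1 at an unadjusted p below 0.05). The 10 libraries had no label of batch or date, so no within-batch value could be given.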

How the data were processed

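The data were liver RNA-seq libraries of 5 WT and 5 THRB-KO mice, grouped by the genotype in the titles and labels. The authors mapped the reads on mm10 (GRCm38) with HISAT2 2.2.1 and counted them per gene on exons with HTSeq 0.9.1, in union mode, without strand, at a minimum alignment quality of 10 on Ensembl release 102, and deposited raw counts. Reads mapping to several places or genes were not counted, which lowers genes with close copies or overlapping neighbours. The libraries were stranded, but strand was not used, so reads of antisense partners cannot be told apart. The authors' edgeR 3.36.0 comparison table, with fold changes, F and p-values, was not used.

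The analysis of these counts used R 4.3.3 with edgeR 4.0.16 (TMM, quasi-likelihood F-test, robust settings), following the authors' settings: genes that reached 1 CPM in 5 or more libraries, Benjamini-Hochberg over all 12234 genes, called at an adjusted p below 0.15, also given at 0.05. The SE of a log2 fold change is its absolute value over the square root of F. In fits without 1 mouse, 1 CPM was asked for in as many libraries as the smaller group had. Alternatives were DESeq2 1.42.0, limma-voom (limma 3.58.1), other normalizations, filters and tests, the replicate number as a block, and leaving out each mouse. The script was tested on simulated data. Total counts and the CPM of 3 counts are given in the results; counting limits cover counting error only. Exon overlaps and lengths come from GENCODE on GRCm38, in another release than the one counted on.

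The 39 members, the other lists and the tests were chosen with earlier results of these data known. The text names all 39 members, at most 4 called genes of each other list by absolute log2 fold change, and Thrb. Every mouse is given for the called members and for Clec4f, Timd4, Cd5l, Marco, Adgre1, Csf1r, Cd74, H2-Aa, H2-Ab1, H2-Eb1, Cd3e, Cd79a, Nkg7 and Ptprc. No member of the list was tested as a set.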

Additional observations from a re-analysis of the deposited data

Results flagged for a closer look

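Of 138 groups of 5 mice examined, 7 held 1 mouse far from the other 4 by Dixon's criterion, and chance flags about 6.9 of 138. Marco was at 62.3 CPM in WT mouse 5, against 2.54 to 13.1 CPM in the other WT mice. Coro1a was at 2.38 CPM in WT mouse 1, against 4.69 to 5.35 CPM in the others. Itgax was at 1.32 CPM in THRB-KO mouse 1, against 0.549 to 0.662 CPM, and Cx3cr1 was at 1.06 CPM in THRB-KO mouse 4, against 0.601 to 0.729 CPM. The summed lymphocyte genes were at 4.39 CPM in THRB-KO mouse 2, against 3.25 to 3.53 CPM. Outside the members, Lcn2 was at 30.2 CPM in THRB-KO mouse 2, against 6.32 to 11.9 CPM, and the summed myeloid cytokine genes were at 86.1 CPM in THRB-KO mouse 1, against 39.5 to 47.8 CPM.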

How the results depend on the processing

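Over 20 alternatives the signs of the 25 tested members did not change. Of 500 pairs of member and alternative, 472 kept their side of the threshold, 9 lost the call, 19 gained it and 0 reversed. Most of these pairs were of members that were not called in the main fit. The 9 lost calls were all of H2-Ab1, 7 in fits without 1 mouse and 2 under other settings, and Mpeg1 lost 0. Genes called numbered 885 with DESeq2 and 880 with limma-voom, and at 0.05 were 502 with DESeq2, 285 with limma-voom, 418 with the likelihood ratio test and 294 without a filter. Members called numbered 7 with DESeq2 (4 lower, 3 higher), 5 with the likelihood ratio test (2 lower, 3 higher), and 1 without a filter (0 higher). At 0.05 members called numbered 3 with DESeq2, 2 with the likelihood ratio test, and 1 with limma-voom or without robust settings. H2-Ab1 without a filter had a log2 fold change of 0.73 (adjusted p = 0.24). The causes were not tested.

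Leaving out each mouse gave 229 to 684 genes called (81 to 191 at 0.05), the fewest without THRB-KO mouse 3 and the most without THRB-KO mouse 1. Members called ranged from 1 to 10 (1 to 10 lower, 0 to 3 higher, 0 to 1 at 0.05), with 10 without WT mouse 1 and 4 without WT mouse 3. H2-Ab1 ranged from 0.60 to 0.93 and Mpeg1 from -1.35 to -1.05 on the log2 scale.

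The numbers in the labels gave no pairing of mice: same-numbered mice correlated at 0.0091, -0.20, -0.065, -0.058 and -0.016 in their deviations from the genotype means. With the replicate block, 348 genes were called, and 1 member (0 higher), also 1 at 0.05; H2-Ab1 was 0.75 (adjusted p = 0.28). S100a8 had no value where 10 counts in every library were required.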
